A study of Mus musculus with 24 samples.

Results

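The 12 libraries made from CD45- cells of mouse ileum differed widely in how much epithelial and how much endothelial RNA they held, and the 4 libraries richest in epithelial transcripts were set against the 4 richest in endothelial transcripts. These 8 of the 12 CD45- libraries, out of 24 libraries in the whole series, were chosen by a score read from the same counts. For each library the mean log2(CPM + 1) of Vil1, Fabp2, Apoa1 and Epcam, which mark epithelium, was taken, and the mean of Pecam1, Cdh5, Kdr and Tie1, which mark endothelium, was subtracted. CPM are a gene's counts scaled to the same total in every library, and 1 was added so that genes with no count could be placed on a log2 scale. Because the score chose the libraries, everything that compares the 4 highest with the 4 lowest is a description of these 8 libraries, without a test, and the 8 scoring genes are left out of it.

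CD45 is carried by hematopoietic cells, so a CD45- gate on cells of the gut wall keeps the epithelium together with blood and lymph vessels, fibroblasts, pericytes, smooth muscle and enteric glia. The epithelium of the ileum is a single sheet in which absorptive enterocytes take up fat, sugars, peptides and bile acids across a brush border, between mucus-secreting goblet cells, Paneth cells, hormone-secreting cells and tuft cells. Endothelial cells line the vessels beneath it, keep their identity through ETS and SOX transcription factors, depend on VEGF, TIE and Notch signals, and display adhesion molecules on which leukocytes roll and stick.

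Mice were of 4 genotypes on a C57BL/6 background, with 3 CD45- libraries for each: Hoil1+/+ Il4ra f/f, Hoil1+/+ Il4ra dIEC, Hoil1-/- Il4ra f/f and Hoil1-/- Il4ra dIEC. Hoil1-/- mice carry the tm1Kiwa mutation of Rbck1, the gene for HOIL1, a subunit of the linear ubiquitin chain assembly complex LUBAC, which leaves some expression of its N-terminal part. All mice of all groups carry loxP-flanked Il4ra, the gene for the receptor subunit of IL-4 and IL-13, and in dIEC mice a Cre driven by the villin promoter deletes it in intestinal epithelial cells only. No treatment is given in the labels, the mice were 9.0 to 10.3 weeks old, and males and females were used in the study. Epithelial cells were stripped from the tissue. A share of them, set by the study's protocol, was put back with the lamina propria cells before live single cells were sorted. The epithelial share that each sorted sample then held was not measured here. Counts on genes came to 8082800 to 30131213 in the epithelium-rich libraries, 6028275 to 23157450 in the 4 libraries between the ends and 17566339 to 68345191 in the endothelium-rich libraries. The number of genes with at least 1 count was 13540 to 15262, 13003 to 15942 and 16391 to 17013 in the same order, so every endothelium-rich library held more detected genes than every epithelium-rich one, while their depths overlapped. Whether depth had a part in the differences given here was not tested.

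The 4 epithelium-rich libraries were, from the highest score down, Hoil1-/- Il4ra f/f replicate 1 (score 4.25), Hoil1+/+ Il4ra dIEC replicate 1 (3.44), Hoil1+/+ Il4ra dIEC replicate 2 (3.42) and Hoil1-/- Il4ra f/f replicate 2 (3.27). The 4 endothelium-rich libraries were Hoil1+/+ Il4ra dIEC replicate 3 (-1.57), Hoil1-/- Il4ra dIEC replicate 1 (-2.03), Hoil1+/+ Il4ra f/f replicate 2 (-2.21) and, lowest of all, Hoil1-/- Il4ra dIEC replicate 2 (-3.82). Values given for 4 libraries follow these orders. The libraries just outside the ends were Hoil1+/+ Il4ra f/f replicate 1, at 2.65, on the upper side and Hoil1-/- Il4ra f/f replicate 3, at -0.86, on the lower, so both limits of the choice fell in gaps smaller than the one between ranks 6 and 7 (2.06 and -0.70). The last-named library is the 1 CD45- library that the study left out as an outlier; it belongs to neither end, and the ends were the same 8 libraries without it. Leaving out any of the 8 scoring genes in turn, scaling by TMM or adding 0.1 instead of 1 CPM also gave the same 8 libraries. That includes the score without Vil1, whose promoter drives the Cre of the dIEC mice.

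**Figure D1:**
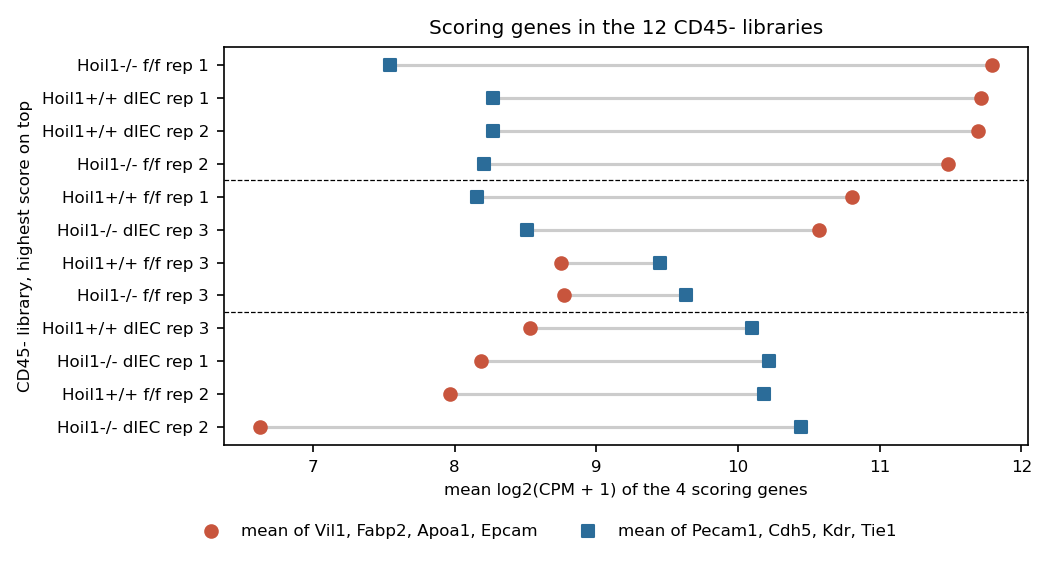
Mean log2(CPM + 1) of the 4 epithelial (circles) and the 4 endothelial (squares) scoring genes in each CD45- library, ordered by score, with dashed lines between the epithelium-rich, middle and endothelium-rich libraries. Both means contribute to the order: circles move left and squares move right from the top library (score 4.25) to the bottom library (score -3.82).

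Each end held 2 Hoil1-/- and 2 Hoil1+/+ libraries. The epithelium-rich end held 2 f/f and 2 dIEC libraries and the endothelium-rich end 1 f/f and 3 dIEC libraries. Over all 12 libraries the score was 0.48 ± 3.2 in Hoil1-/- and 0.84 ± 2.62 in Hoil1+/+ mice (SD, n = 6 each), a difference of -0.36 with exact permutation p = 0.810 (two-sided; adjusted p = 0.810 over the 2 genotype tests). It was 0.25 ± 3.12 in dIEC and 1.06 ± 2.65 in f/f mice (SD, n = 6 each), a difference of -0.81 with exact permutation p = 0.606 (two-sided, adjusted p = 0.810). The spread within each genotype group was thus several times the difference between groups, and each group had libraries near both ends. The smallest p that 924 assignments of 6 against 6 allow is 0.00216. Libraries from mice of the same age fell at the same end in 4 of 5 pairs: both 9.4-week and both 9.7-week libraries were epithelium-rich, both 9.0-week and both 9.6-week libraries were endothelium-rich. The 9.1-week libraries were in the middle at 2.06 and -0.70, on either side of the widest gap. Among these pairs, the 9.4-week, 9.6-week and 9.7-week ones share their genotype as well, the 9.0-week and 9.1-week ones do not. The day of tissue harvest and sort is not given in the labels, so age, litter and day cannot be told apart here.

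Across all other genes, 13919 with a mean of at least 1 CPM over the 12 libraries were compared. A gene is said to separate the ends when the 4 values of one end all lie above the 4 of the other and the means differ by at least 1 on the log2(CPM + 1) scale, a scale that understates the change of genes near 0. By this definition 923 genes were higher in the epithelium-rich libraries, 6.63% of those compared, and 2825 were higher in the endothelium-rich libraries, 20.3%. The separating genes of the epithelial side were fewer at a difference of at least 2, with 416 against 897 on the endothelial side, and more numerous at wider ones, with 166 against 59 at 3 or more and 52 against 1 at 4 or more. The middle 4 libraries had a mean between the means of the ends for 90.7% of the genes higher in the epithelium-rich and 92.3% of those higher in the endothelium-rich libraries. That mean joins unlike libraries. From 0 at the endothelium-rich to 1 at the epithelium-rich mean, their median positions over the former genes were 0.71, 0.51, 0.25 and 0.10. Over the latter genes they were 0.60, 0.50, 0.09 and 0.35, both in order of score. The excess of separating genes on the endothelial side kept its direction but changed in size with the scaling. TMM and RLE scale a library by the bulk of its genes instead of its total count. The median gene was lower by 0.47 in the epithelium-rich libraries with total counts, by 0.14 with TMM-scaled and by 0.11 with RLE-scaled library sizes. Genes higher in the epithelium-rich libraries made up 24.6% of separating genes with total counts, 44.6% (1389 against 1727 genes) with TMM and 46.8% (1451 against 1650) with RLE. In bulk libraries such as these, fewer cells of a type and less RNA per cell cannot be told apart.

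The plot of list members by difference shows 32 of the 33 gene lists that follow; a 4-gene mesothelium list had no member above the minimum. Negative differences mean a higher level in the endothelium-rich libraries, and each list's median is to be read against -0.47 for all genes. The shares of all genes that separated, 6.63% higher and 20.3% lower, stand beside these counts only as a background, since the score that chose the libraries was read from cells of the same kinds.

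**Figure D2:**
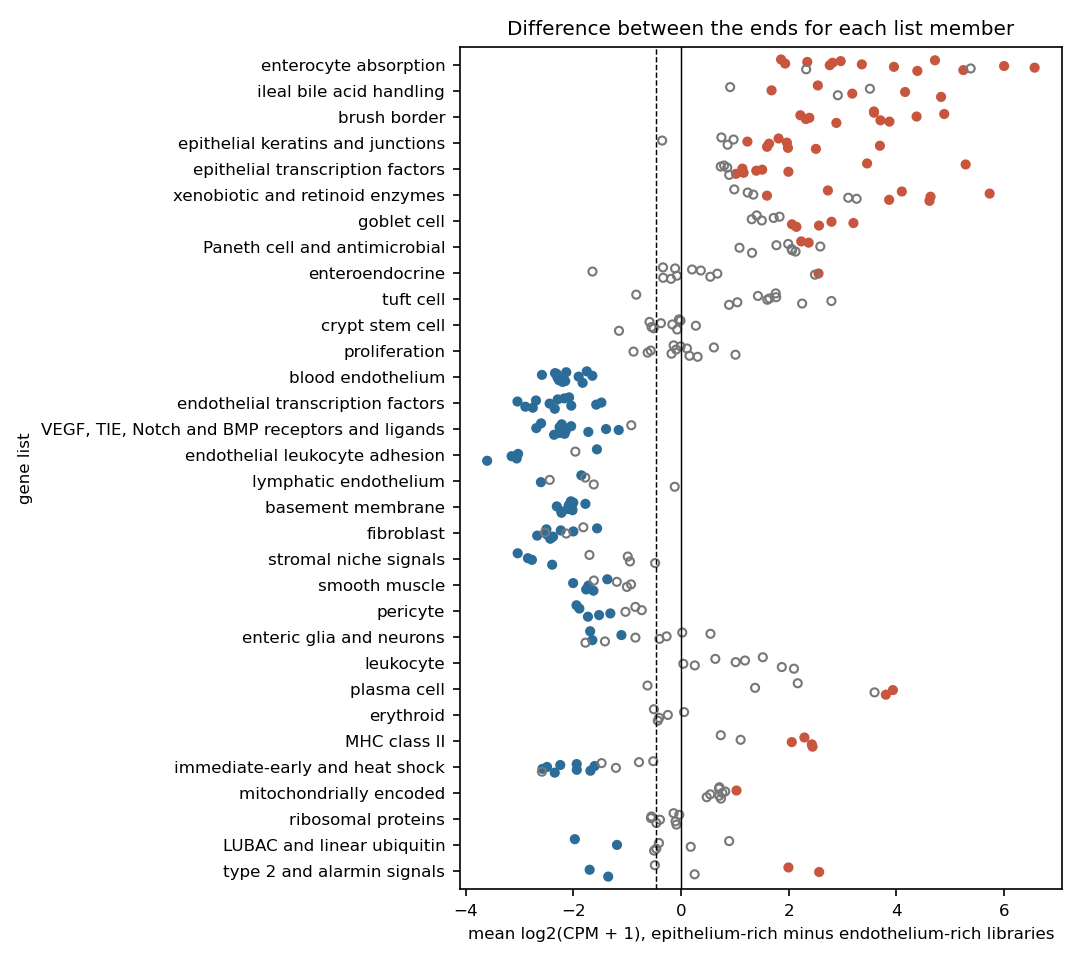
Difference in mean log2(CPM + 1), epithelium-rich minus endothelium-rich libraries (4 each), for every compared member of 32 gene lists. Filled points separate the ends and open points do not; the dashed line is the median of all 13919 genes (-0.47). Enterocyte and brush border points lie to the right, vessel, matrix and immediate-early points to the left, and stem cell, proliferation, erythroid and ribosomal points near the lines.

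Genes of absorptive enterocytes were far higher in the epithelium-rich libraries. Of 15 genes of the enterocyte absorption list, 13 were higher in the epithelium-rich libraries, with a median difference of 3.36. Apoa4 (ENSMUSG00000032080.6, chr9:46240696-46243459, plus strand), an apolipoprotein that enterocytes load onto chylomicrons, had the largest difference of all named genes. It was at 6051, 5781, 2128 and 2793 CPM in the epithelium-rich, 1115, 4262, 327 and 195 CPM in the middle and 38.7, 30.4, 131 and 14.5 CPM in the endothelium-rich libraries. The ends did not overlap, and the means were 11.89 ± 0.76 against 5.32 ± 1.29 on the log2(CPM + 1) scale (SD, n = 4 each), a difference of 6.57. The second middle library, Hoil1-/- Il4ra dIEC replicate 3, was among the epithelium-rich values for this gene. Apoc3, another apolipoprotein of the same chromosome 9 cluster as the scoring gene Apoa1, was at 451, 385, 297 and 278 CPM against 4.45, 2.68, 17.4 and 1.33 CPM, a difference of 6.002. Lct, which encodes lactase, was at 634, 416, 328 and 176 against 19.01, 1.54, 92.2 and 0.578 CPM. The endothelium-rich values of Lct spanned a wide range, with 92.2 CPM in Hoil1+/+ Il4ra f/f replicate 2, yet stayed below every epithelium-rich value. Anpep and Mgam, a peptidase and a disaccharidase of the brush border surface, differed by 3.36 and 1.86. The 2 members that did not separate were Sis (sucrase-isomaltase, difference 2.32) and Fabp1 (a liver-type fatty acid binding protein, difference 5.38), in each of which 1 endothelium-rich library reached above the lowest epithelium-rich one. Both separated with TMM scaling.

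The promoters of the first 2 genes by difference on this side with an entry in RefSeq (GRCm38.p6) are shown because these genes had the largest differences. Each run is 300 bases, 250 before and 50 after the transcription start, 5′ to 3′ on the gene's strand. Capitals mark letters that match, on either strand, 1 of 5 motifs searched: AGATAA for GATA factors, TTTATNG for CDX factors, CAAAGTCCA for HNF4 factors, AGGAAG for ETS factors and TGTTTAC for FOX factors. The Apoa4 window, chr9:46240594-46240893 on the plus strand, held none of them. The Plb1 window, chr5:32238834-32239133 on the plus strand and the first of more than 1 listed for this gene, held 1 CDX match.
Apoa4: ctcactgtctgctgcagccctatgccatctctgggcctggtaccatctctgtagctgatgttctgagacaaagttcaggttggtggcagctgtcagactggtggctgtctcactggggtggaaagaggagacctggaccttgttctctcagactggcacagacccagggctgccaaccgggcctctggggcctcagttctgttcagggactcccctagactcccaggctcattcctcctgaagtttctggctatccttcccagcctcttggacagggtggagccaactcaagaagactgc
Plb1: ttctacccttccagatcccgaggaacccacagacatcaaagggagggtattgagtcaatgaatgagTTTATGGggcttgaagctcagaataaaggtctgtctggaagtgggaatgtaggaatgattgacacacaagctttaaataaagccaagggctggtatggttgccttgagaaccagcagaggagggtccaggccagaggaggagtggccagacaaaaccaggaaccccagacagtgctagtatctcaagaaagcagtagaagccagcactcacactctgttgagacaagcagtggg

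Plb1 (ENSMUSG00000029134.14, chr5:32232708-32366520), a brush border phospholipase that splits dietary phospholipids, was at 574, 382, 734 and 332 CPM in the epithelium-rich and 18.3, 4.44, 2.75 and 1.02 CPM in the endothelium-rich libraries. The difference was 6.50, and the middle libraries, at 356, 56.9, 6.002 and 27.000 CPM, ran from the level of one end to that of the other. The other genes with the 10 largest differences on this side were Clca4a, Fam151a, Rbp2, 2010109I03Rik, Enpp7 and Creb3l3. Rbp2, a retinol carrier of enterocytes, was at 965, 819.8, 666 and 786 against 15.4, 9.91, 62.7 and 3.55 CPM. Enpp7, an alkaline sphingomyelinase of the brush border, was at 437, 350.3, 244 and 206 against 11.2, 3.02, 24.1 and 0 CPM. Clca4a, Fam151a and 2010109I03Rik differed by 5.96, 5.81 and 5.70. In the plot of the named genes these 10 form tight groups in the epithelium-rich libraries and wide ones in the endothelium-rich libraries. Fam151a and Enpp7 had no count in Hoil1-/- Il4ra dIEC replicate 2, where 3 counts would be 0.133 CPM.

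**Figure D3:**
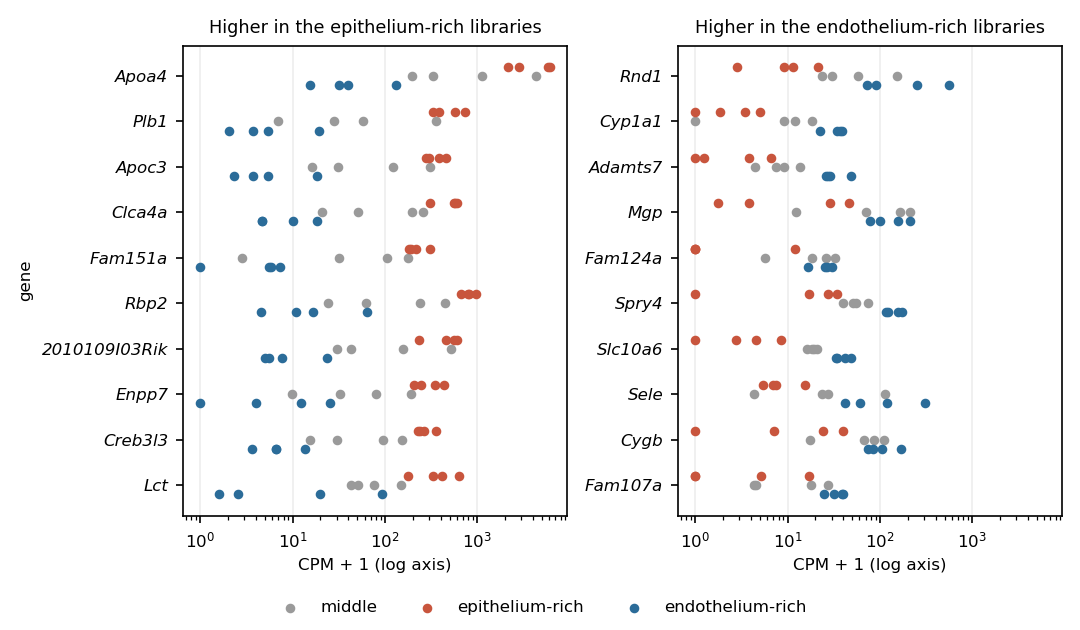
CPM + 1 on a log axis for the 10 genes with the largest difference in each direction (mean of at least 10 CPM), 1 point for each of the 4 epithelium-rich, 4 middle and 4 endothelium-rich libraries. The ends do not overlap for any of the 20 genes, which is how they were chosen, and most middle points lie between them.

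All 10 brush border genes were higher in the epithelium-rich libraries, with a median difference of 3.58. Cdhr2 and Cdhr5, the 2 protocadherins that link neighbouring microvilli, were at 1406, 1249, 1366 and 1123 against 183, 95.9, 86.2 and 36.8 CPM and at 1849, 1749, 2162 and 1595 against 239, 161, 146 and 66.2 CPM. Myo1a, a myosin of the microvillus core, differed by 2.89. Among 8 genes of ileal bile acid handling, 5 were higher and the median was 3.05. Fabp6, the bile acid binding protein of ileal enterocytes, was at 3380.0, 2280.2, 7215 and 2313 CPM in the epithelium-rich and 767, 306, 3.24 and 195 CPM in the endothelium-rich libraries, where 1 library, Hoil1+/+ Il4ra f/f replicate 2, was far below the other 3. Slc51a and Slc51b, the subunits of the basolateral bile acid exporter, differed by 3.18 and 4.16. Slc10a2, the apical bile acid importer, was at 43.9, 40.8, 51.8 and 42.4 against 41.2, 3.53, 0 and 5.998 CPM and overlapped, because Hoil1+/+ Il4ra dIEC replicate 3 had 41.2 CPM. Fgf15, the hormone through which bile acids in the ileum restrain their own synthesis in the liver, overlapped as well (19.7, 31.2, 101 and 3.19 against 4.29, 0, 0.324 and 1.42 CPM). Of 12 xenobiotic and retinoid enzymes and carriers, 7 were higher, among them the carboxylesterases Ces2a (4.10) and Ces2e (2.73).

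Genes that are expressed by all or most epithelial lineages differed by less than those of enterocytes. Of 12 keratin and junction genes, 8 were higher, with a median of 1.62. Krt20, a keratin of mature villus cells, was at 1357, 1214, 901 and 1035 against 140.4, 121, 87.3 and 35.1 CPM, a difference of 3.69. Krt8 and Krt19 differed by 2.51 and 1.60. Cdh1, which encodes E-cadherin, was at 604, 503, 364 and 424 against 414, 271, 245 and 154 CPM, so that 1 endothelium-rich library overlapped the epithelium-rich range and the difference was 0.86. The same held for transcription factors, of which 8 of 12 were higher with a median of 1.15. Hnf4a, a nuclear receptor that maintains the enterocyte program, was at 604, 598, 529 and 394 against 323, 225, 229.8 and 178 CPM, a difference of 1.16. Its relative Hnf4g differed by 1.99, and Cdx2, the homeobox factor that sets intestinal identity, by 1.02. Creb3l3, a membrane-bound factor that controls apolipoprotein genes, stood far above the others with a difference of 5.29 (359.6, 260.1, 224 and 241 against 5.65, 5.64, 12.7 and 2.62 CPM). Klf5, a factor of crypt cells, differed by 1.14. Elf3 did not overlap but differed by 0.86, under the limit of 1, and separated with TMM scaling.

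The HNF4 letters CAAAGTCCA were found in 2.2% of promoters of genes higher in the epithelium-rich libraries (15 of 681 with an entry) and in 0.28% of those higher in the endothelium-rich libraries (6 of 2144). They stood in 0.467% of promoters of all compared genes and 0.477% of all 27025 promoters in the table. For 5 genes of this side with known enterocyte roles, chosen after their values were seen, the stretch around the match is printed with the match in capitals, 5′ to 3′ on the gene's strand (GRCm38.p6). The windows are chr1:87101607-87101635 for Alpi and chr5:145879945-145879973 for Cyp3a11 on the minus strand, and chr3:96830069-96830097 for Pdzk1, chr17:85028298-85028326 for Slc3a1 and chr9:44673152-44673180 for Treh on the plus strand.
Alpi: tagccagggaCAAAGTCCAtctctgattt
Pdzk1: aatctttgtcCAAAGTCCAgtgagttcca
Slc3a1: cttggctggaCAAAGTCCAgccatgatta
Treh: cctcatagccTGGACTTTGgctgacctgg
Cyp3a11: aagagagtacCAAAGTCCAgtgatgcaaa
In Treh the letters lie on the opposite strand and so read TGGACTTTG. Alpi, the intestinal alkaline phosphatase, was at 509.6, 361, 373 and 251 against 39.7, 10.99, 21.98 and 7.06 CPM, and Treh, which splits trehalose, was at 205, 102, 115 and 95.5 against 6.69, 5.24, 4.92 and 0.755 CPM. Cyp3a11, a drug-metabolizing enzyme with close relatives among which reads may be shared, was at 162, 70.6, 93.7 and 117 against 6.79, 3.24, 9.88 and 0 CPM. Pdzk1, a scaffold for apical transporters, differed by 4.89, and Slc3a1, a subunit of the apical cystine transporter, by 3.43. GATA letters stood in 10.4% of the promoters of the epithelial side, 5.46% of the endothelial side and 6.5% of those compared, against 11.4% of the whole table. In the same order CDX letters stood in 10.3%, 7% and 7.1% against 11.3%, ETS letters in 38.6%, 33.9% and 33.1% against 35.1%, and FOX letters in 2.06%, 2.52% and 2.53% against 3.55%. Letters in a promoter are a description and not a measured binding site.

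Secretory and sensory lineages did not follow the enterocyte order. Of 10 goblet cell genes 5 were higher in the epithelium-rich libraries (median 1.95), and 9 with TMM scaling. Muc2, the main secreted mucin, was at 6636, 1931, 1767 and 3941 CPM in the epithelium-rich and 748, 1302, 585 and 409 CPM in the endothelium-rich libraries. Clca1, a metalloprotease of the mucus layer, was at 9034, 1609.7, 1351 and 8008 against 516, 755, 319 and 174 CPM. In both genes the Hoil1-/- Il4ra f/f libraries, at the start and end of the list, were above the Hoil1+/+ Il4ra dIEC libraries between them, 2-fold or more. The level of the whole goblet list, the mean log2(CPM + 1) of its genes, was 10.28, 8.51, 8.65 and 10.23 in the epithelium-rich, 9.70, 9.55, 7.87 and 8.91 in the middle and 7.56, 8.12, 7.21 and 6.57 in the endothelium-rich libraries. All middle libraries but Hoil1+/+ Il4ra f/f replicate 3 were thus above both Hoil1+/+ Il4ra dIEC libraries of the epithelium-rich end.

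No tuft cell gene separated the ends, with 10 of 12 compared and a median difference of 1.62. Tuft cells are chemosensory cells and a source of IL-25. Trpm5, their taste-type cation channel, was at 214, 14.02, 9.03 and 229 CPM in the epithelium-rich, 9.75, 14.8, 17.01 and 3.09 CPM in the middle and 10.9, 15.7, 7.29 and 7.91 CPM in the endothelium-rich libraries. Sh2d6 was at 136, 5.22, 6.06 and 224 against 2.44, 10.5, 4.27 and 1.82 CPM, and Avil, an actin-binding protein of these cells, at 142, 8.16, 4.58 and 203 against 10.9, 14.3, 8.26 and 9.33 CPM. All 3 were high in the Hoil1-/- Il4ra f/f libraries of the epithelium-rich end alone, while the Hoil1+/+ Il4ra dIEC libraries of that end were within the range of the endothelium-rich end or under it. The third Hoil1-/- Il4ra f/f library, the one the study left out, had 3.09 CPM of Trpm5, the lowest of the 12, but 20.4 CPM of Rgs13 and 16.4 CPM of Plcb2, other genes of the list. Hoil1-/- Il4ra f/f replicate 1 had 20.8 and 25.2 CPM of these. Over the whole tuft list, however, the left-out library had a level (mean log2(CPM + 1)) of 2.21. That lay within the 1.48 to 2.64 of all libraries but Hoil1-/- Il4ra f/f replicates 1 and 2, at 4.25 and 5.15. Across the 12 libraries the Hoil1 effect on Trpm5, averaged over the Il4ra genotypes, was 1.98 on the log2 scale (SE 0.68, edgeR quasi-likelihood test, adjusted p = 1.00). The Il4ra effect on Trpm5, averaged over the Hoil1 genotypes, was -1.73 in the same fit (SE 0.68) and did not pass after adjustment either. Without the library the study left out, the Hoil1 effect was 2.26 (adjusted p = 0.0497, edgeR). Its adjusted p ran from 0.0497 to 1.00 over the alternatives tried, with edgeR in all but the DESeq2 one (0.229).

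**Figure D4:**
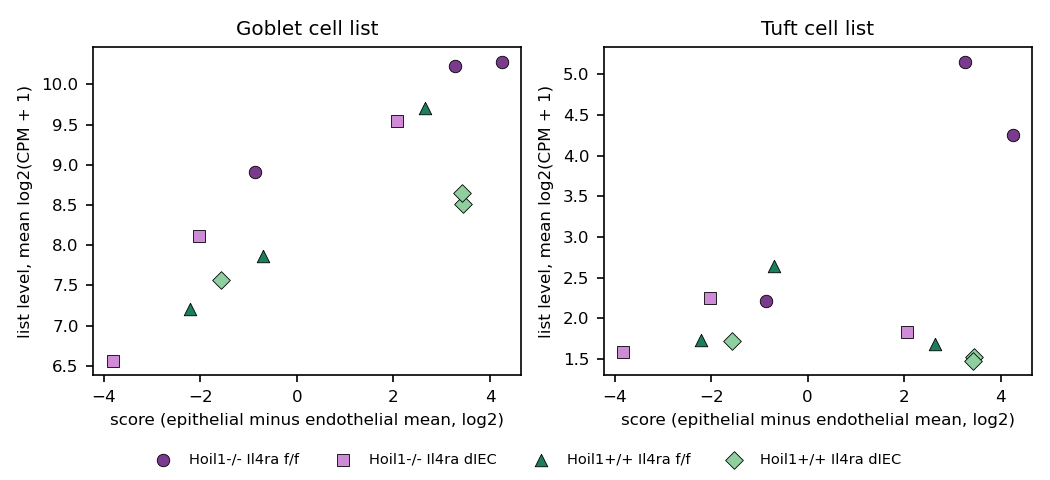
Level of the goblet cell list (left) and the tuft cell list (right), as mean log2(CPM + 1) of the list's genes, against the score of each CD45- library, with 1 symbol for each genotype (3 libraries each). Goblet levels run from 6.57 at the lowest score to 10.28 at the highest, with 2 Hoil1+/+ Il4ra dIEC libraries (8.51 and 8.65) lower than others of high score; tuft levels are 4.25 and 5.15 in 2 Hoil1-/- Il4ra f/f libraries and 1.48 to 2.64 in the other 10.

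Most Paneth and hormone-secreting cell genes overlapped between the ends. In the list of Paneth cell and antimicrobial genes 2 of 10 separated, Reg3b and Reg3g, lectins made by several epithelial lineages. Reg3b was at 817, 1706, 1634 and 1318 against 261, 447, 202 and 175 CPM and Reg3g at 374, 968, 737 and 709 against 108, 320.3, 97.7 and 112 CPM. The Paneth cell lysozyme gene Lyz1 was at 1038, 871, 929 and 1488 CPM in the epithelium-rich, 11636, 1465, 809.9 and 877 CPM in the middle and 2269, 90.6, 1343 and 115 CPM in the endothelium-rich libraries. Hoil1+/+ Il4ra f/f replicate 1 of the middle was far above all others, and 2 endothelium-rich libraries were above most epithelium-rich ones. Defa24 and Itln1 differed by 2.06 and 1.77 with overlap, and reads of the defensin family may be shared among near-identical copies. Of 12 enteroendocrine genes only Pyy, the hormone peptide YY, separated (75.7, 29.2, 34.5 and 29.2 against 20.2, 1.14, 5.46 and 6.31 CPM), and Sct did so in addition with TMM scaling. Chga, Chgb and Gcg differed by -0.19, -0.33 and -0.08, and the list's median was 0.06.

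Crypt genes did not separate the ends. None of 10 stem cell genes and none of 12 proliferation genes separated, with medians of -0.27 and -0.05 against -0.47 for all genes. With TMM scaling these medians turned to 0.10 and 0.31, against -0.14. Olfm4, a secreted protein of crypt base cells, was at 1390.3, 739.5, 788 and 1212 against 1764, 933, 1328 and 549 CPM. Lgr5, the receptor that marks cycling stem cells, was at 11.4, 3.76, 9.53 and 11.1 against 46.8, 13.9, 22.4 and 9.997 CPM. Mki67, a marker of dividing cells, was at 92.1, 44.3, 44.8 and 65.4 against 79.5, 48.5, 36.03 and 35.99 CPM. Villus lists and crypt lists thus differed between the ends by unlike amounts: the enterocyte, brush border and crypt stem cell medians were 3.36, 3.58 and -0.27.

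On the endothelial side, separation was nearly complete but of smaller size. All 14 blood endothelium genes were higher in the endothelium-rich libraries, with a median of -2.22 and a range from -2.58 to -1.65. Plvap, which forms the diaphragms of fenestrated capillaries, was at 1238, 1998, 2096 and 2579 CPM in the epithelium-rich, 2208, 4500.5, 5422 and 5162 CPM in the middle and 8118, 9125, 8767 and 10922 CPM in the endothelium-rich libraries. The means were 10.90 ± 0.45 against 13.16 ± 0.18 on the log2(CPM + 1) scale (SD, n = 4 each). Vwf, the clotting protein stored by endothelium, was at 377, 455, 464 and 715 against 1633, 2273, 1953 and 2928 CPM, and Ptprb, a phosphatase of the TIE2 receptor, differed by -2.30. Endothelial RNA was thus far from absent in the epithelium-rich libraries. Cldn5, a tight junction gene of vessels, was at 102, 61.4, 29.1 and 188 against 262, 213, 399 and 256 CPM and lost its separation with TMM scaling.

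All 12 endothelial transcription factors were higher in the endothelium-rich libraries (median -2.32). Erg, an ETS factor that holds endothelial identity, was at 32.003, 39.3, 48.6 and 55.1 against 199, 213, 192 and 297 CPM, and Sox17, a factor of arterial cells, was at 4.55, 27.8, 32.2 and 16.6 against 137, 109, 151 and 121 CPM. Epas1, which encodes the hypoxia factor HIF2A, and Sox18 differed by -2.29 and -2.04. Of 13 VEGF, TIE, Notch and BMP receptors and ligands 12 were higher, with a median of -2.16. Flt1, the VEGF receptor VEGFR1, was at 205, 388, 369 and 308 against 1516, 1558, 1478 and 1813 CPM, and Eng and Acvrl1, the BMP co-receptor and receptor mutated in hereditary vessel malformation, differed by -2.04 and -2.26. Apln, a peptide of sprouting vessels, was the exception at 31.3, 18.97, 24.6 and 28.8 against 26.2, 92.9, 25.8 and 92.6 CPM, high in both Hoil1-/- Il4ra dIEC libraries and low in the other 2 of that end. Of 6 lymphatic genes 2 were higher, and both remained so with TMM scaling. Mmrn1 (2.81, 3.48, 3.46 and 1.59 against 17.6, 33.1, 20.96 and 18.4 CPM) and Pdpn (difference -1.85) separated, and the other 4, among them the lymphatic factor Prox1 (-0.12) and Lyve1 (-1.62), did not.

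The largest single differences on this side were in genes of low or moderate level. Rnd1 (ENSMUSG00000054855.13, chr15:98663421-98677461), a GTPase that loosens cell adhesion, was at 1.82, 10.5, 20.2 and 8.10 CPM in the epithelium-rich, 150.1, 29.03, 56.8 and 22.3 CPM in the middle and 248, 70.7, 553 and 90.1 CPM in the endothelium-rich libraries, a difference of -4.28. Cyp1a1 (ENSMUSG00000032315.6, chr9:57687928-57703824), the enzyme induced by ligands of the aryl hydrocarbon receptor, was at 3.97, 2.47, 0.866 and 0 against 37.5, 33.2, 36.2 and 21.2 CPM. Fam124a (ENSMUSG00000035184.15, chr14:62555737-62608486) had no count in 3 epithelium-rich libraries and 10.9 CPM in the other, against 15.5, 25.7, 24.4 and 29.1 CPM. Mgp, an inhibitor of calcification in vessel walls, was at 0.744, 27.6, 2.85 and 45.2 against 76.5, 155, 98.1 and 211 CPM, and Cygb, a globin of fibroblasts and pericytes, at 0, 23.4, 6.19 and 38.4 against 73.5, 104, 83.4 and 166 CPM. Slc10a6 differed by -3.61, Adamts7 by -3.74, Fam107a by -3.43 and Spry4, a feedback inhibitor of growth factor signals, by -3.63. Of these 10 genes 7 had no count in at least 1 epithelium-rich library, where 3 counts would be 0.0996 to 0.371 CPM. Of all 2825 genes on this side, 581 had no count in at least 1 epithelium-rich library.

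The promoters of Cyp1a1 and Fam124a are shown as the first 2 of this side with an entry in the table (GRCm38.p6), with the same motifs in capitals. The Cyp1a1 window, chr9:57697363-57697662 on the plus strand, held 1 CDX and 1 GATA match, and the Fam124a window, chr14:62555487-62555786 on the plus strand, held 1 ETS and 1 GATA match.
Cyp1a1: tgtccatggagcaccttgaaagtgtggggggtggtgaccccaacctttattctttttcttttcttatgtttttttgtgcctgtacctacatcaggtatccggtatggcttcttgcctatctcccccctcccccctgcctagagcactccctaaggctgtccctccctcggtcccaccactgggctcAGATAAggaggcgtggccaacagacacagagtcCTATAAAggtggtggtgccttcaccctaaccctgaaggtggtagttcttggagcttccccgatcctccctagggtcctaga
Fam124a: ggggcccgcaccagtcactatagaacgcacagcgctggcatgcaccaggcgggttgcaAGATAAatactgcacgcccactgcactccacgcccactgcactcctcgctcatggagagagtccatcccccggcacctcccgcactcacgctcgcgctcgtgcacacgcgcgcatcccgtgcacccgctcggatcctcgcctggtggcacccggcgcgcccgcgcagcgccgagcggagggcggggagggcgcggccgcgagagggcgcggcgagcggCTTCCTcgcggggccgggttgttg

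Most adhesion genes for leukocytes and most immediate-early genes were higher in the same libraries. Of 6 adhesion genes 5 separated, with a median of -3.04. Sele, E-selectin, which appears on activated endothelium, was at 5.87, 6.51, 14.6 and 4.38 CPM in the epithelium-rich, 113, 22.4, 26.3 and 3.36 CPM in the middle and 118, 40.9, 307 and 60.3 CPM in the endothelium-rich libraries. Selp, P-selectin, was at 32.7, 45.9, 68.5 and 107 against 496, 279, 1049.5 and 386 CPM and Icam1 at 26.5, 52.4, 84.6 and 46.1 against 387, 237, 806 and 350.2 CPM. In all 3 genes Hoil1+/+ Il4ra f/f replicate 2 had the highest value of the 12 libraries. Both Hoil1+/+ libraries of the endothelium-rich end were above both Hoil1-/- libraries of that end in these genes. The same order held at the epithelium-rich end for Sele and Icam1, but not for Selp. Madcam1, the gut homing receptor for integrin α4β7, overlapped (102, 55.9, 58.9 and 334 against 308, 333, 601 and 439 CPM), with its highest level, 974 CPM, in the middle library Hoil1-/- Il4ra dIEC replicate 3. Ackr1, a chemokine-binding receptor of venules, separated (-1.56) but not with TMM scaling. Over the 12 libraries the edgeR Hoil1 effects were -2.52 for Sele, -1.25 for Selp, -1.56 for Icam1 and -0.67 for Vcam1 (log2 scale). Those of Madcam1 and Ackr1 went the other way, at 0.44 and 0.57. None of these genes passed after adjustment over all genes tested.

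Of 13 immediate-early and heat shock genes, which respond within minutes to growth factors and to stress, tissue dissociation included, 8 were higher in the endothelium-rich libraries (6 with TMM scaling) and the median was -1.94. Fos was at 226, 517, 732 and 301 CPM in the epithelium-rich, 1586, 911, 1512 and 610.0 CPM in the middle and 3174, 1015, 4112 and 1316 CPM in the endothelium-rich libraries. Egr1 was at 348, 1289, 1785 and 476 CPM in the epithelium-rich, 5443, 2401, 4649 and 1357 CPM in the middle and 4371, 3621, 7387 and 4118 CPM in the endothelium-rich libraries. Zfp36, which destabilizes cytokine mRNA, differed by -2.24. The 5 members that did not separate were the immediate-early genes Fosb and Atf3 and the heat shock genes Hspa1b, Dnajb1 and Hsp90aa1. Jun and Ier2 lost their separation with TMM scaling. The highest values of Fos and Egr1 at the endothelium-rich end were again in Hoil1+/+ Il4ra f/f replicate 2. In both genes both Hoil1+/+ libraries were above both Hoil1-/- libraries at each end and in the middle. Over all CD45- libraries the edgeR Hoil1 effects were -1.51 for Fos, -1.26 for Egr1 and -1.57 for Zfp36 (log2 scale). For the heat shock genes Hspa1b and Hsp90aa1 they were -0.08 and 0.12. None of these genes passed after adjustment over all genes tested. The middle library Hoil1+/+ Il4ra f/f replicate 1, whose score was 2.65, had more Egr1 than 3 of the 4 endothelium-rich libraries. The summed level of the list was 2088 to 6369 CPM in the epithelium-rich and 10311 to 27205 CPM in the endothelium-rich libraries. Whether handling of the tissue had a part in the adhesion genes was not tested.

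The label of the endothelium-rich libraries covers only a part of what they held in excess, since genes of other cells of the gut wall were higher in them too. All 10 basement membrane genes separated (median -2.07), among them Col4a1, a chain of type IV collagen, at 524, 1039, 1185 and 802 against 3096, 4664, 2958 and 5760.3 CPM, and Col4a2 and Hspg2, which differed by -2.22 and -2.003. Of 12 fibroblast genes 9 were higher (median -2.40). Col1a1, a chain of type I collagen, was at 130.3, 428, 190.4 and 646 CPM in the epithelium-rich, 146, 670.0, 1637 and 2595 CPM in the middle and 775, 2205, 1018 and 3371 CPM in the endothelium-rich libraries. Col1a2 and Col3a1 differed by -2.42 and -2.38. The highest epithelium-rich value of Col1a1, 646 CPM, was close to the lowest endothelium-rich one, 775 CPM. With TMM scaling 4 fibroblast genes still separated, and these 3 collagens did not. The summed fibroblast list was 776 to 3228 CPM in the epithelium-rich and 3993 to 13164 CPM in the endothelium-rich libraries. Of 8 compared niche signals of crypt fibroblasts 4 were higher, with and without TMM scaling: Bmp4 (-2.39), Wnt2b (-2.77), Grem1, a BMP antagonist that protects stem cells (5.04, 2.57, 6.68 and 15.1 against 40.3, 53.2, 39.4 and 77.9 CPM), and Sfrp1, a WNT antagonist (-3.04).

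Smooth muscle and pericyte genes differed by less, with 6 of 10 and 5 of 8 higher in the endothelium-rich libraries and medians of -1.62 and -1.42. With TMM scaling 2 of each list separated. Acta2, smooth muscle actin, was at 170.4, 481, 566 and 825 CPM in the epithelium-rich, 1444, 1787, 3126 and 171 CPM in the middle and 906, 988, 1995 and 1972 CPM in the endothelium-rich libraries, and its highest value of all was in the middle library Hoil1+/+ Il4ra f/f replicate 3. Myh11 and Tagln, a myosin and an actin-binding protein of smooth muscle, differed by -1.76 and -1.72. Among pericyte genes, Rgs5 was at 40.9, 305, 257 and 209 against 378, 503, 566 and 776 CPM, with the lowest value in the library of highest score. Notch3, the Notch receptor of mural cells, differed by -1.89. Summed levels were 561 to 2206 CPM in the epithelium-rich and 2558 to 5509 CPM in the endothelium-rich libraries for smooth muscle and 125 to 665 CPM in the epithelium-rich and 957 to 1912 CPM in the endothelium-rich libraries for pericytes. Of 10 compared genes of enteric glia and neurons 3 were higher, 30% against 20.3% of all genes, and 7 did not separate. S100b, a glial calcium-binding protein, and Nos1, the nitric oxide synthase of inhibitory neurons, had no count in any epithelium-rich library and reached at most 3.81 and 5.56 CPM at the other end, and Ret, the receptor for GDNF, differed by -1.11 and did not separate with TMM scaling (-0.77).

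**Figure D5:**
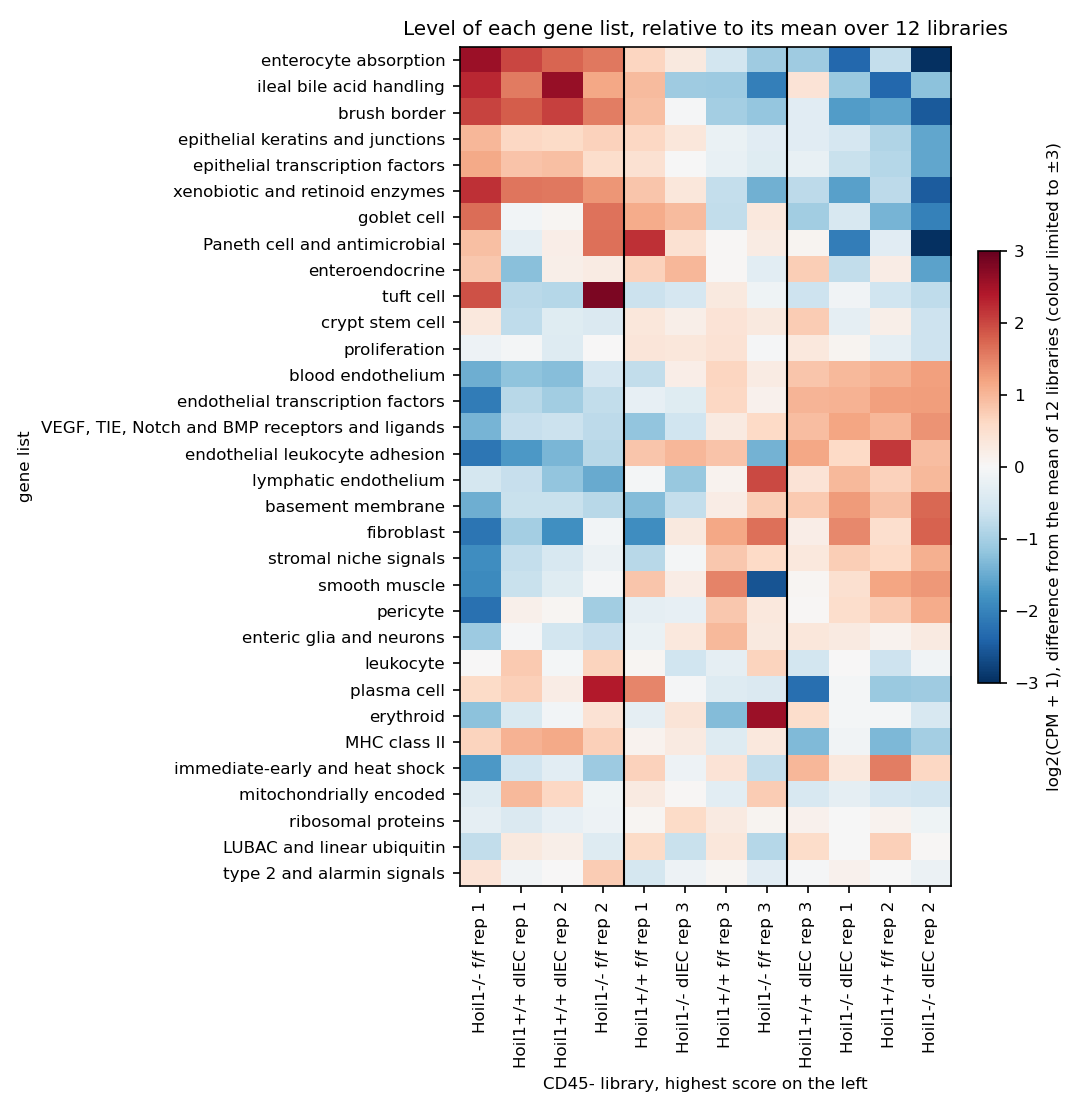
Level of each of 32 gene lists (mean log2(CPM + 1) of its genes) in the 12 CD45- libraries, from the highest score on the left to the lowest on the right, as the difference from the list's mean over the 12 libraries; vertical lines part epithelium-rich, middle and endothelium-rich libraries. Enterocyte levels fall from 9.13 to 3.51 and blood endothelium levels climb from 6.52 to 9.21 across the columns, while tuft, plasma cell, erythroid and mitochondrial lists stand out in 1 or a few libraries each.

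Leukocyte transcripts, which the CD45- gate should remove, were at low levels at both ends, though not equal. Plasma cell and red cell transcripts reached higher levels. The plasma cell list summed to 1695 to 12827 CPM in the epithelium-rich and 61.1 to 1378 CPM in the endothelium-rich libraries. The red cell list summed to 2166 to 6493 CPM and 3612 to 6776 CPM in the same order. None of the 8 compared leukocyte genes separated, and the others of the list were below the minimum. Ptprc, which encodes CD45 itself, was at 10.7, 1.56, 3.22 and 16.3 against 0.307, 2.33, 0 and 0.489 CPM, and the leukocyte list of 13 genes summed to 29.4 to 64.3 CPM in the epithelium-rich and 7.99 to 24.02 CPM in the endothelium-rich libraries. The summed levels did not overlap, and Cd3d had no count in any library. Plasma cells carry little CD45, and 2 of 6 compared genes of their list (3 with TMM scaling) were higher in the epithelium-rich libraries. Jchain, the joining chain of secreted IgA, was at 292, 252, 168 and 861 against 5.38, 104, 18.04 and 21.2 CPM, and the light chain gene Igkc was at 1718, 1149, 854 and 5896 against 21.3, 575, 94.5 and 147 CPM. Igha overlapped with total counts and separated with TMM scaling. All 3 were highest in Hoil1-/- Il4ra f/f replicate 2, where the summed list reached 12827 CPM. Red cell genes, which report leftover blood, did not separate: Hbb-bs was at 1371, 2079.5, 2900.4 and 4053 against 3954, 2678, 2925 and 2138 CPM. The highest value of the 12 libraries, 16001 CPM, was in the one the study left out. Reads of the paired Hba genes may be shared between copies.

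MHC class II genes were higher in the epithelium-rich libraries, in 4 of 6 with total counts and 6 of 6 with TMM scaling (median 2.17). Class II molecules present peptides to CD4+ T cells and are made by villus enterocytes as well as by leukocytes. Cd74, the invariant chain, was at 1265, 2012, 2228 and 1248 CPM in the epithelium-rich, 1043, 878, 485 and 511 CPM in the middle and 201, 714, 248 and 342 CPM in the endothelium-rich libraries. H2-Ab1 was at 392, 594, 604 and 462 against 62.04, 169.5, 70.1 and 101 CPM and H2-Aa differed by 2.44. The level of the leukocyte list (mean log2(CPM + 1) of its 13 genes) was 1.15, 1.94, 1.09 and 1.82 in the epithelium-rich and 0.59, 1.17, 0.53 and 1.04 in the endothelium-rich libraries, and its part in the class II levels was not tested. Mitochondrially encoded genes took 7.40%, 20.1%, 15.4% and 8.85% of counts in the epithelium-rich and 6.87% to 8.24% in the endothelium-rich libraries. With total counts 1 of 9 of them separated, mt-Co3 (63.9, 124, 119 and 81.4 against 43.5, 53.7, 42.6 and 42.9 CPM), and 7 did with TMM scaling. The high shares at the epithelium-rich end were those of the Hoil1+/+ Il4ra dIEC libraries, whose replicate 3, at the other end, had 7.18%. The middle libraries had 12.3%, 9.84%, 7.79% and 17.4%. None of 8 ribosomal protein genes separated, with a median of -0.27 that turned to 0.11 with TMM scaling, and Rplp0 was at 1886, 1496, 1649 and 1792 against 1960.2, 1707, 1843 and 1484 CPM.

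Among genes of the pathways that the study's mouse lines alter, some separated the ends and some did not. Of 7 LUBAC and linear ubiquitin genes Otulin, the linear-chain deubiquitinase, and Tnfaip3, the NF-κB-induced regulator A20, were higher in the endothelium-rich libraries, at 3.06, 11.2, 5.20 and 11.98 against 21.3, 18.05, 12.6 and 17.7 CPM and 27.7, 72.4, 55.1 and 32.2 against 187, 106, 342 and 133 CPM. These 2 were 28.6% of the list, against 20.3% of all genes, and the list's median was -0.46, against -0.47 for all genes. Only Tnfaip3 still separated in this direction with TMM scaling. The catalytic subunit gene Rnf31 (HOIP) differed by -0.46 with overlap, and Tnip1, a partner of A20, by 0.89 without overlap, which separated with TMM scaling. Rbck1 followed genotype at both ends: it was at 2.89, 97.3, 70.9 and 7.24 CPM in the epithelium-rich and 112, 5.24, 131 and 8.71 CPM in the endothelium-rich libraries, where the values below 10 CPM are those of Hoil1-/- mice.

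Among 6 compared genes of type 2 and alarmin signalling, 2 were higher at each end. Il17rb, a subunit of the IL-25 receptor, was at 22.1, 1.56, 2.72 and 13.6 against 0, 0.968, 0.324 and 0 CPM, again with its highest values in the Hoil1-/- Il4ra f/f libraries. Il18, an epithelial cytokine, was at 6.28, 8.62, 15.3 and 10.5 against 3.99, 1.42, 1.73 and 0.578 CPM. Il33, an alarmin of stromal and endothelial nuclei, was at 5.71, 7.06, 4.58 and 16.96 against 17.9, 28.8, 25.01 and 39.99 CPM. Il4ra was at 61.2, 41.98, 51.5 and 81.97 CPM in the epithelium-rich and 149, 158, 187 and 110.1 CPM in the endothelium-rich libraries, in which 3 of 4 came from mice without epithelial Il4ra. Il33 and Il4ra did not separate with TMM scaling. Counts are summed over the whole gene, so they do not check the deletion. Il13ra1 and Stat6, a partner and a target of the receptor, did not separate, with differences of 0.25 and -0.49.

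The genotype effects across all genes were fitted over the 12 libraries with and without the score. In the edgeR quasi-likelihood fit with a mean for each genotype, 0 of 15332 genes passed an adjusted p of 0.05 for the Hoil1 effect averaged over Il4ra genotypes, and 0 for the Il4ra effect (0% called in each). An unadjusted p under 0.05 was found for 593 and 516 genes, and DESeq2 called 105 and 80. Rbck1 itself differed by -4.50 on the log2 scale (SE 0.64, edgeR adjusted p = 0.201), although each of the 6 Hoil1-/- libraries was below each Hoil1+/+ library. With the score as a covariate this became -4.47 (adjusted p = 0.0263, edgeR), without the library the study left out -4.23 (adjusted p = 0.00106, edgeR), and over all alternatives adjusted p ran from 7.19e-11 (DESeq2) to 0.921 (edgeR, without Hoil1-/- Il4ra dIEC replicate 1). With the score 3 genes passed for Hoil1, namely Rbck1, Fosb and Pla2g4c, and 1 for Il4ra, Mt1. The number with an unadjusted p under 0.05 was then 1102 and 743. Without the library the study left out, 3 genes passed for Hoil1, Rbck1, Trpm5 and Lrmp.

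The CD45+ fraction, sorted from ileum of the same 4 genotypes and not used by the score, gave a comparison of the same kinds of transcript in 12 other libraries. There the enterocyte absorption list had a level of 0.71 to 4.02 (median 1.89) and the blood endothelium list one of 0.42 to 3.18 (median 1.59), against at least 3.51 and 6.52 in the CD45- libraries. Over the 12 CD45+ libraries the levels of these lists had a Pearson r of -0.03 (permutation p = 0.918) and a Spearman rho of 0.05 (permutation p = 0.887). This was the only relation computed, so the adjusted values are the same. Without the 2 libraries farthest from the median enterocyte level r was -0.53 (permutation p = 0.103), and over the 10 CD45+ libraries that the study kept it was -0.44 (permutation p = 0.209). An opposed order of epithelial and endothelial transcripts was not detected in these 12 libraries. Both lists mark cells that this gate should remove, so r at such low levels cannot decide the question. The highest enterocyte levels, 4.02 and 3.04, were in Hoil1+/+ Il4ra dIEC replicates 1 and 2. The highest endothelial levels, 3.18 and 2.31, were in Hoil1-/- Il4ra dIEC replicates 2 and 1. CD45- libraries of the same genotype and age were epithelium-rich and endothelium-rich, in this order. Hoil1+/+ Il4ra dIEC replicate 3 was high in neither list (1.41 and 1.65).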

How the data were processed

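Live CD45+ and CD45- single cells were sorted from mouse ileum and sequenced as 24 bulk RNA libraries. Per the labels and methods, reads were cleaned with cutadapt and placed on mm10 (GRCm38) by STAR, and the authors deposited raw counts per ENSEMBL gene from featureCounts; versions, strand setting and counting options are not given in the sources used here, so overlapping, antisense and near-identical genes (defensin, hemoglobin, antibody and Cyp3a genes) could share or lose reads. CPM were taken over total counts, and genes with a mean of at least 1 CPM over the 12 CD45- libraries were compared. Named genes were the 10 with the largest difference in each direction (mean of at least 10 CPM), the 3 members of each list with the highest mean CPM, members that separated nearly alone, Rbck1, Il4ra, Ptprc and genes past 0.05 in a genotype fit; other list members and the 5 HNF4 promoters were named after their values were seen. The members and lists were chosen with earlier results of these data known.

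Genotype effects were tested with edgeR 4.0.16 (quasi-likelihood, TMM, filterByExpr, Benjamini-Hochberg adjustment) in R 4.3.3, with DESeq2 1.42.0 as an alternative. The score was compared between genotypes by exact permutation and list levels in CD45+ libraries by 100000 permutations (scipy 1.17.1). The labels do not name the animals, so p-values measure only the spread between libraries. Promoters came from RefSeq (GRCm38.p6), using the first window listed per gene.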

Additional observations from a re-analysis of the deposited data

Results flagged for a closer look

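Within an end, 1 library stood apart from the other 3 by Dixon's ratio (the gap to the nearest library over the whole range, set against its 95% critical value) in 15 of 296 gene or list values looked at. Chance flags about 1 in 20.

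At the epithelium-rich end, 9 genes and 1 list had such a library. Hoil1-/- Il4ra f/f replicate 2 was lowest for Krt19 (1255 CPM against 1687 to 1706, ratio 0.957) and Klf5 (177 CPM against 290.5 to 300.02, ratio 0.922). It was highest for Ptprb (415 CPM against 202 to 235, ratio 0.843), Madcam1 (334 CPM against 55.9 to 102, ratio 0.834) and Fam124a (10.9 CPM against 0, ratio 1). Hoil1-/- Il4ra f/f replicate 1 was lowest for Tcf4 (40.3 CPM against 66.6 to 69.6, ratio 0.898) and Notch3 (50.9 CPM against 169 to 188, ratio 0.863), and highest for Elf3 (405 CPM against 333 to 342, ratio 0.880). It was also the only one with counts of the mesothelium list (level 0.53 against 0, ratio 1), all of whose genes were under the 1 CPM minimum. Where the other libraries of an end are all at 0, as for Fam124a and the mesothelium list, the ratio is 1 whatever the value. Hoil1+/+ Il4ra dIEC replicate 2 was lowest for Clca4a (306 CPM against 557 to 601, ratio 0.851).

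At the endothelium-rich end, 5 genes had such a library. Hoil1+/+ Il4ra dIEC replicate 3 was highest for both subunits of the bile acid exporter, Slc51a (91.6 CPM against 13.2 to 26.1, ratio 0.835) and Slc51b (23.4 CPM against 3.08 to 4.78, ratio 0.916). Hoil1-/- Il4ra dIEC replicate 1 was highest for 2010109I03Rik (22.4 CPM against 4.05 to 6.69, ratio 0.857) and Jchain (104 CPM against 5.38 to 21.2, ratio 0.840), and Hoil1-/- Il4ra dIEC replicate 2 for Adamts7 (47.5 CPM against 25.3 to 27.9, ratio 0.881).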

How the results depend on the processing

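The 8 libraries stayed at their ends under all 11 other ways of scoring tried. Counts of separating genes moved by over 1.5 times with TMM (1389 higher, 1727 lower), RLE (1451 higher, 1650 lower) and 6 libraries at each end (428 higher, 931 lower), which takes in the middle libraries. All 923 higher genes were among those higher with TMM and RLE, but both scalings move differences toward the epithelium-rich side, which favours keeping them. Of the 2825 lower genes, 1727 stayed lower with TMM and 1650 with RLE, and the rest were lost. Leaving out 1 library gave 883 to 1067 higher and 2865 to 3395 lower genes, and 3 at each end, 0.1 CPM added, other minimums and the 11 libraries of the study stayed within 1.5 times. List medians turned sign with TMM and RLE in 4 lists: type 2 and alarmin genes (-0.12 to 0.25 and 0.29), crypt stem cell (-0.27 to 0.10 and 0.14), proliferation (-0.05 to 0.31 and 0.35) and ribosomal proteins (-0.27 to 0.11 and 0.15), each with a shift of all genes from -0.47 to -0.14 and -0.11. The erythroid median, at -0.41, turned to just above 0 with RLE alone. For Hoil1, where 0 genes passed, 3 passed over the 11 libraries (that is, without Hoil1-/- Il4ra f/f replicate 3), 3 with the score as a covariate and 105 with DESeq2. For Il4ra 1 passed with the score and 80 with DESeq2. Leaving out any other library gave 0 for both. Over the CD45+ libraries r ran from -0.40 to 0.27 without single libraries and was 0.23 with 0.1 CPM added. The fractions were not paired, because the labels name no animals and replicate numbers follow accession order only. Genotype and age match between the fractions for some libraries, but no paired analysis was run on this. Depth limits the genes with no count in an end, for which differences depend on the value added.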
